A study of Homo sapiens with 12 samples.

Results

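Keratins and vimentin are the intermediate filament proteins by which epithelial and mesenchymal cells are commonly told apart, and 10 of their genes were followed here among the 38611 genes measured. They were taken by gene symbol: the type II keratins KRT5, KRT7, KRT8, KRT80 and KRT81, the type I keratins KRT15, KRT17, KRT18 and KRT19, and VIM, which encodes vimentin. The data were RNA sequencing counts and FPKM values (fragments scaled to gene length and library size) of 12 libraries from PC3 and DU145, human prostate carcinoma lines that were isolated from a bone and a brain metastasis. The 4 groups of 3 libraries each were docetaxel-resistant PC3, parental PC3, docetaxel-resistant DU145 and parental DU145. Docetaxel is a taxane that binds and stabilises microtubules. Per the labels, both resistant lines came from stepwise dose increases, which began at 0.5 for PC3 and at 10 for DU145 and went on until the half-maximal inhibitory concentration was 15 for PC3 and 1800 for DU145, in a unit the submitters write as nm/ml. The parental lines were the untreated controls and all cells grew in the same serum-containing medium. The labels do not say whether a resistant line was a clone or a mixed population, whether drug was present at harvest, or whether the 3 libraries of a group were separate cultures. The p-values below therefore reflect library-to-library variation within a group, which may be technical only.

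A keratin filament is built from heterodimers of a type I and a type II chain, so a cell that makes keratin filaments transcribes at least a gene of each type. Simple epithelia and the luminal cells of the prostate are known for KRT8 with KRT18, ductal epithelia also for KRT7 with KRT19, and basal cells of stratified and prostatic epithelium for KRT5 with KRT14 or KRT15. Vimentin is a type III protein that assembles with itself, is typical of mesenchymal cells and is also made by many carcinoma lines in culture.

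The libraries held between 62513103 and 72530254 counts. Mitochondrial genes took 3.50% ± 0.04 of the counts in resistant PC3 and 5.82% ± 0.20 in parental PC3, 7.08% ± 0.05 in resistant DU145 and 4.11% ± 0.17 in parental DU145 (SD, n = 3 each). Levels of the epithelial markers EPCAM and CDH1 differed between the groups in the same libraries: CDH1, which encodes E-cadherin, averaged 0.164 FPKM in resistant PC3, 1.63 FPKM in parental PC3, 12.4 FPKM in resistant DU145 and 0.645 FPKM in parental DU145, and EPCAM averaged 2.90 FPKM in resistant PC3, 4.05 FPKM in parental PC3, 20.2 FPKM in resistant DU145 and 7.79 FPKM in parental DU145. CTNNA1, which PC3 is known to have lost, averaged 0.244 and 0.328 FPKM in resistant and parental PC3, against 43.8 and 60.4 FPKM in resistant and parental DU145. Of 5 leukocyte markers 4 were under 1 CPM (counts scaled to library size) on average in every group, PTPRC averaging at most 0.152 CPM and CD3E at most 0.0514 CPM. The fifth, CD68, a lysosomal gene of macrophages, averaged 79.0 CPM in resistant and 52.4 CPM in parental PC3, and 28.8 CPM in resistant and 17.1 CPM in parental DU145, and was called higher in both resistant lines (edgeR adjusted p = 0.03169 in PC3 and 0.01218 in DU145). The fibroblast and smooth muscle list summed to 15.4 to 23.0 CPM in resistant PC3 and 127 to 139 CPM in parental PC3, and to 6.75 to 13.2 CPM in resistant DU145 and 25.8 to 44.8 CPM in parental DU145. All 10 of its genes had counts in every group. COL1A1 averaged 11.5 CPM in resistant and 103 CPM in parental PC3, and 4.9 and 8.6 CPM in resistant and parental DU145. COL1A2 averaged up to 16.1 CPM (parental DU145) and PDGFRA up to 11.8 CPM (parental PC3), while LUM averaged at most 0.274 CPM. Of 7 endothelial markers CDH5 averaged at most 0.118 CPM, and PECAM1 averaged 27.3 CPM in resistant and 18.3 CPM in parental PC3. The list summed to 61.1 to 83.2 CPM in resistant PC3 and 184.5 to 240.6 CPM in parental PC3, and to at most 5.22 CPM in DU145. KDR averaged 40.8 CPM in resistant and 178 CPM in parental PC3. What part, if any, these genes have in the results below was not tested.

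Of the 10 genes, 8 passed the filter on low counts. Between resistant and parental PC3 all 8 were called, 3 higher and 5 lower, where 44% of the 24128 genes tested were called (22.4% higher and 21.6% lower). Between resistant and parental DU145, 6 of the 8 were called, 3 higher and 3 lower, where 39.6% of genes tested were called (18.9% higher and 20.7% lower). A gene is called at a Benjamini-Hochberg adjusted p below 0.05 in edgeR's quasi-likelihood test, with the adjustment made over all genes tested. The median log2 difference of the 8 genes was -0.52 in PC3 and 0.05 in DU145, and that of all genes tested was 0 in both lines. In these bulk samples fewer cells making a transcript and less of it per cell cannot be told apart.

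**Figure D1:**
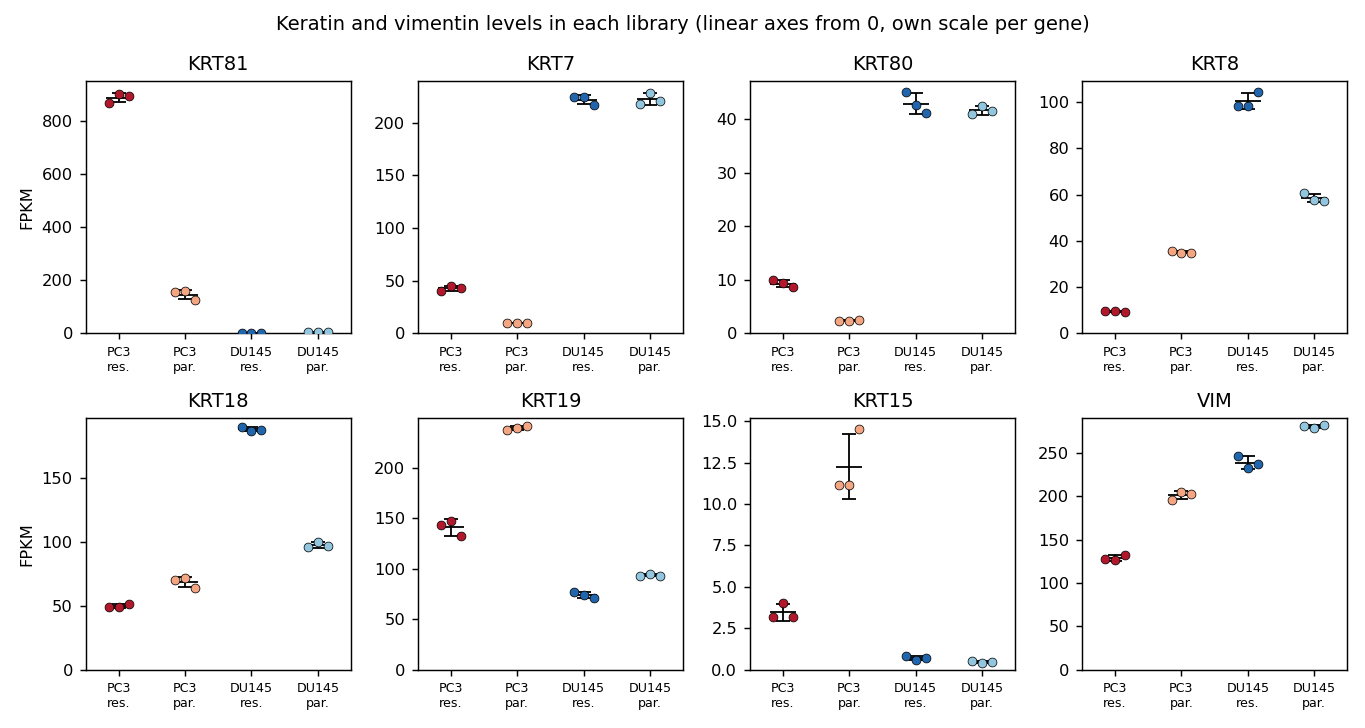
FPKM of the 8 genes that passed the filter, 1 point per library, with the mean and SD of the 3 libraries as bars; res. is docetaxel-resistant, par. is parental, and each panel has its own linear axis from 0. KRT81 is at 868 to 900.3 FPKM in resistant PC3 and at most 5.16 FPKM in either DU145 group, while KRT7 and KRT80 are higher in both DU145 groups than in either PC3 group.

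KRT81 encodes a type II keratin of the hair cortex, which is outside the usual set of a simple epithelium. It was the most abundant of the 10 transcripts per length in resistant PC3, at 868, 900.3 and 894 FPKM, against 154, 157 and 124 FPKM in parental PC3. Resistant DU145 had 1.83, 1.35 and 1.88 FPKM and parental DU145 3.95, 3.90 and 5.16 FPKM. The groups of each line did not overlap, and the resistant cells were the higher ones in PC3 and the lower ones in DU145. The log2 difference was 2.66 ± 0.13 in PC3, 6.30-fold higher (edgeR adjusted p = 2.45e-08), and -1.33 ± 0.15 in DU145, 2.52-fold lower (edgeR adjusted p = 4.208e-05; here and below ± after a log2 difference is its standard error). PC3 was above DU145 by 9.10 ± 0.17 log2 units between the resistant lines and by 5.11 ± 0.15 between the parental lines (edgeR adjusted p = 6.67e-12 and 1.385e-10).

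KRT81 (ENSG00000205426) lies at chr12:52285913-52291534 of GRCh38 on the minus strand, wholly inside the span of KRT86 (ENSG00000170442), a second hair keratin gene that runs from 52249300 to 52309163 on the plus strand. The coding sequences of KRT81 and KRT86 were identical at 1364 of 1457 aligned bases (93.62%), and 456 of the 1369 windows of 150 bases (33.31%, the read length in the labels) in the KRT81 coding sequence occurred unchanged in a KRT86 transcript. The coding sequences of KRT83 and KRT85, the other hair keratin neighbours, shared 93.32% and 85.64% of aligned bases with KRT81 and none of those windows. A 100-base stretch near the 3' end of the coding sequences, bases 1227 to 1326 of each, is shown because it holds 19 of the differences by which reads of the 2 genes can be told apart. Capitals mark the bases that differ, and both sequences are from the GENCODE transcripts of GRCh38, 5' to 3'.
KRT81: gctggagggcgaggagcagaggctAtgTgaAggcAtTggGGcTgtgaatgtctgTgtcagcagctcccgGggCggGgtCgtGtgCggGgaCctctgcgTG
KRT86: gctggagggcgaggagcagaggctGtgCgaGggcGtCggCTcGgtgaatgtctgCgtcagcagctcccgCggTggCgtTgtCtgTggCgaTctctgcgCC

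The counts of the KRT86 gene were 1914, 1974 and 1939 in resistant PC3 and 276, 210 and 236 in parental PC3, which is 1.65% ± 0.11 and 1.33% ± 0.23 of the KRT81 counts in the same libraries (SD, n = 3 each). In DU145 KRT86 had 121, 132 and 112 counts in resistant libraries and 108, 75 and 72 in parental ones, or 59.6% ± 17.4 and 15.9% ± 4.64 of the KRT81 counts. KRT86 was higher in resistant PC3 by 2.99 ± 0.17 log2 units and in resistant DU145 by 0.55 ± 0.17 (edgeR adjusted p = 8.79e-10 and 0.01978), so the 2 genes moved the same way in PC3 and opposite ways in DU145. How reads that match both genes were assigned is not given in the sources used here, which leaves the KRT81 values of DU145 less certain than those of PC3. It also leaves the KRT86 values of PC3 uncertain, since KRT81 counts were far higher there. Whether KRT81 reads were counted for KRT86 was not tested.

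KRT7 (ENSG00000135480, chr12:52232520-52252186, plus strand), a type II keratin of ductal and glandular epithelium, was after VIM the most abundant of the 10 transcripts in both DU145 groups. It had 40.3, 44.3 and 42.7 FPKM in resistant PC3 and 9.07, 9.26 and 9.40 FPKM in parental PC3. Resistant DU145 had 225, 225 and 217 FPKM and parental DU145 218, 229 and 221 FPKM, and these groups overlapped. Resistant PC3 was 4.72-fold higher than parental PC3, a log2 difference of 2.24 ± 0.04 (edgeR adjusted p = 2.426e-15). In DU145 the log2 difference was 0.02 ± 0.04 with a 95% interval from -0.06 to 0.10 (edgeR adjusted p = 0.7228). The rise in PC3 left KRT7 below DU145, by 2.33 ± 0.04 log2 units between the resistant lines, where the parental lines differed by 4.54 ± 0.04.

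KRT80 (ENSG00000167767, chr12:52168996-52192014, minus strand), a type II keratin found in many epithelia, was likewise higher in DU145 than in PC3 and higher in resistant than in parental PC3. It had 9.84, 9.30 and 8.59 FPKM in resistant PC3 and 2.19, 2.28 and 2.40 FPKM in parental PC3, without overlap. In DU145 it had 45.0, 42.6 and 41.2 FPKM in resistant libraries and 40.9, 42.5 and 41.6 FPKM in parental ones, which overlapped. The log2 difference was 2.05 ± 0.06 in PC3, 4.15-fold higher (edgeR adjusted p = 9.17e-13), and 0.07 ± 0.06 in DU145, with a 95% interval from -0.05 to 0.19 (edgeR adjusted p = 0.3902). KRT7 and KRT80 were neighbours in pattern as well: on mean-centred log2(CPM + 1) over the 12 libraries their root mean square difference was 0.206, and KRT80 was the second closest of 12202 genes to KRT7 and KRT7 the second closest to KRT80. The closest to both was ABLIM1, which encodes an actin-binding LIM protein, at 0.187 from KRT7 and 0.167 from KRT80.

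KRT8 and KRT18, the type II and type I partners of simple epithelia, moved in opposite directions in the 2 lines. KRT8 had 9.38, 9.61 and 9.0 FPKM in resistant PC3 and 35.6, 34.7 and 34.9 FPKM in parental PC3, 3.66-fold lower in the resistant cells. In resistant DU145 it had 98.6, 98.4 and 104 FPKM and in parental DU145 60.5, 57.9 and 57.3 FPKM, 1.75-fold higher in the resistant cells. Neither pair of groups overlapped, and the log2 differences were -1.87 ± 0.04 in PC3 and 0.80 ± 0.04 in DU145 (edgeR adjusted p = 4.595e-14 and 2.513e-10). KRT18 had 48.7, 49.0 and 51.3 FPKM in resistant PC3 and 70.1, 71.5 and 63.8 FPKM in parental PC3. It had 189.8, 187 and 188 FPKM in resistant DU145 and 95.9, 99.8 and 96.6 FPKM in parental DU145. Again no groups overlapped, and the log2 differences were -0.42 ± 0.04 in PC3 and 0.97 ± 0.04 in DU145 (edgeR adjusted p = 5.367e-07 and 5.266e-11).

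The ratio of KRT8 to KRT18 FPKM was 0.188 ± 0.011 in resistant PC3 and 0.513 ± 0.031 in parental PC3, and 0.534 ± 0.020 in resistant DU145 and 0.601 ± 0.026 in parental DU145 (SD, n = 3 each). The 3 resistant libraries were below the 3 parental ones in both lines. The exact two-sided permutation test gave p = 0.1 for each line, unadjusted and adjusted over both, which is the smallest that 3 against 3 allows. The genes lie next to each other at chr12:52897187-52949920 (KRT8, minus strand) and chr12:52948871-52952900 (KRT18, plus strand) and share 1050 bases on opposite strands, and whether the counting used strand is not given in the sources used here. KRT8 also has 32 processed or other pseudogene rows in the files. Their counts summed to 17.9% to 19.7% of the KRT8 count in resistant PC3 and 3.04% to 4.40% in parental PC3, and to 1.3% to 1.92% in resistant DU145 and 2.63% to 3.65% in parental DU145. The largest, KRT8P12, had between 271 and 601 counts in every library. All pseudogene rows summed to 786 to 884 counts in resistant PC3 and 505 to 683 in parental PC3. The high share in resistant PC3 thus went with lower KRT8 counts and with higher pseudogene counts. The rise of KRT8P12 in PC3 did not pass (0.56 ± 0.25 log2 units, edgeR adjusted p = 0.08561). The 29 pseudogene rows of KRT18 summed to at most 1.39% of its count.

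KRT19 encodes the shortest type I keratin, which lacks most of the tail domain and pairs with KRT7 or KRT8 in ductal epithelium. It fell in both resistant lines. It had 143, 147 and 132 FPKM in resistant PC3 and 237, 239 and 241 FPKM in parental PC3, and 77.2, 74.3 and 71.1 FPKM in resistant DU145 and 92.8, 94.4 and 93.2 FPKM in parental DU145. The resistant libraries were below the parental ones in each line without overlap, and all PC3 libraries were above all DU145 libraries. The log2 differences were -0.73 ± 0.04 in PC3 and -0.31 ± 0.04 in DU145 (edgeR adjusted p = 1.925e-09 and 3.718e-05). KRT19 (chr17:41523617-41528308) overlaps no other gene in the files.

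KRT15 (ENSG00000171346, chr17:41513745-41522529, minus strand), a type I keratin of basal cells, was a low transcript in all groups but parental PC3. It had 3.17, 4.04 and 3.17 FPKM in resistant PC3 and 11.1, 11.1 and 14.5 FPKM in parental PC3, with the third parental library above the other two. Resistant DU145 had 0.841, 0.571 and 0.732 FPKM and parental DU145 0.546, 0.385 and 0.461 FPKM, which did not overlap. The log2 difference was -1.79 ± 0.16 in PC3, 3.45-fold lower (edgeR adjusted p = 2.407e-07), and 0.65 ± 0.18 in DU145 (edgeR adjusted p = 0.008711). The DU145 call rested on 218 to 332 counts in resistant libraries and 149 to 222 in parental ones, and it did not pass in limma on log2(FPKM + 1), where the difference was 0.23 ± 0.11 and the adjusted p 0.1335.

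The other basal keratins were at or near 0. KRT5 (chr12:52514575-52520394) had 26 counts in the first library of resistant PC3 and 0 in the 11 others. KRT17 (chr17:41619442-41624842), which is also induced by injury in stratified epithelium, had 13 counts in the second library of parental PC3 and 27 in the second library of parental DU145 and 0 in the 10 others. Neither passed the filter and no fold is given for them; counts in single libraries were uneven in general, with the variance at mean counts of 5 to 10 averaging 7.63 to 8.43 times the mean.

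VIM was the most abundant of the 10 transcripts per length in both DU145 groups and fell in both resistant lines. It had 127, 126 and 132 FPKM in resistant PC3 and 196, 206 and 203 FPKM in parental PC3. Resistant DU145 had 247, 233 and 238 FPKM and parental DU145 281, 279 and 283 FPKM. No groups overlapped, and the log2 differences were -0.61 ± 0.03 in PC3, 1.52-fold lower, and -0.21 ± 0.03 in DU145, 1.16-fold lower (edgeR adjusted p = 5.299e-10 and 9.356e-05). VIM (chr10:17228241-17237593) overlaps VIM-AS1 on the opposite strand, which had a mean of at most 0.884 FPKM in any group.

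**Figure D2:**
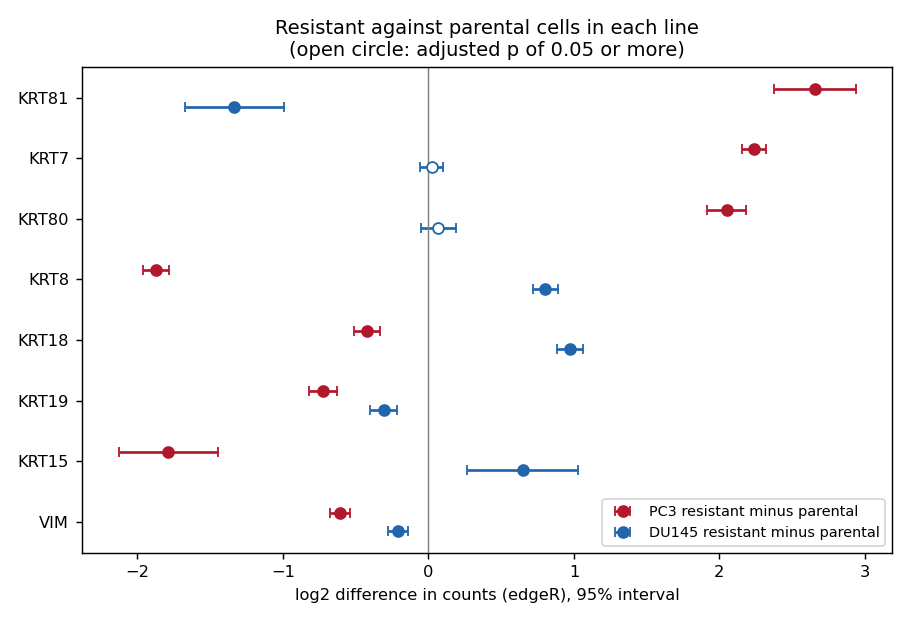
Log2 difference of resistant minus parental cells for each of the 8 genes, with its 95% interval from the edgeR fit; PC3 is in red above DU145 in blue, and open circles are differences that did not pass. KRT8, KRT15, KRT18 and KRT81 lie on opposite sides of 0 in the 2 lines, KRT19 and VIM lie below 0 in both, and the DU145 values of KRT7 and KRT80 are at 0.02 and 0.07.

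The difference between resistant and parental cells was not the same in the 2 lines for any of the 8 genes. The difference between the resistance effects, PC3 minus DU145, was called for 8 of 8, 3 higher and 5 lower, where 42.1% of genes tested were called (22.1% higher and 20% lower). It was 3.99 ± 0.20 for KRT81, 2.22 ± 0.05 for KRT7 and 1.98 ± 0.08 for KRT80, on the log2 scale. It was -2.67 ± 0.06 for KRT8, -2.44 ± 0.24 for KRT15 and -1.40 ± 0.06 for KRT18. It was smaller for KRT19, at -0.42 ± 0.06, and for VIM, at -0.40 ± 0.05. Thus KRT81, KRT8, KRT15 and KRT18 were called in opposite directions in the 2 lines, KRT19 and VIM were lower in both, and KRT7 and KRT80 were called in PC3 alone. The shares of all genes tested that were called in these ways are not given here, so this split is not read as particular to the 8 genes. The medians of these 8 differences and of all genes tested were -0.41 and 0.02.

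The lines differed in the same genes irrespective of resistance. Between the resistant lines, 8 of 8 genes were called between PC3 and DU145, 3 higher in PC3 (KRT81, KRT15 and KRT19) and 5 lower, where 59.8% of genes tested were called (30.6% higher and 29.1% lower). Between the parental lines, 8 of 8 were called with the same 3 higher in PC3, where 60.3% of genes tested were called (30.9% higher and 29.5% lower). The log2 difference of KRT8 was -3.37 ± 0.04 between the resistant lines and -0.69 ± 0.04 between the parental lines, and that of KRT18 was -1.86 ± 0.04 and -0.46 ± 0.04. That of KRT15 was 2.33 ± 0.17 between the resistant lines and 4.77 ± 0.19 between the parental lines, and that of KRT19 was 0.98 ± 0.05 and 1.40 ± 0.05. VIM was lower in PC3 by 0.83 ± 0.03 between the resistant and by 0.43 ± 0.03 between the parental lines. In the order of levels, the neighbouring groups that did not differ beyond their spread were resistant and parental DU145 for KRT7 and KRT80. For KRT19 in resistant PC3 and parental DU145, and for VIM in resistant DU145 and parental PC3, the neighbours were not tested against each other and their values do not overlap.

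The make-up of the keratin transcripts differed between resistant and parental PC3 by more than between resistant and parental DU145. Summed per length over the 9 keratins, type II transcripts were 83.0% ± 0.56 of keratin FPKM in resistant PC3 and 37.4% ± 2.20 in parental PC3 (SD, n = 3 each). In DU145 they were 58.3% ± 0.23 in resistant and 63.1% ± 0.02 in parental cells. KRT81 alone was 77.7% ± 0.60 of keratin FPKM in resistant PC3 and 28.3% ± 2.56 in parental PC3, and 0.267% ± 0.047 in resistant DU145 and 0.836% ± 0.143 in parental DU145. The type I sum was 194 ± 7.05 FPKM in resistant PC3 and 320 ± 1.85 FPKM in parental PC3, while the type II sum was 949 ± 18.6 FPKM in resistant PC3 and 191 ± 18.1 FPKM in parental PC3. In DU145 the type I sum was 263 ± 4.36 FPKM in resistant and 191 ± 2.85 FPKM in parental cells, and the type II sum was 367 ± 2.58 FPKM in resistant and 327 ± 5.20 FPKM in parental cells. KRT19 led the type I transcripts in both PC3 groups, with 12.3% and 46.8% of keratin FPKM in resistant and parental cells. KRT18 led them in resistant DU145, with 29.8%, where KRT19 had 11.8%, and in parental DU145 the same genes were close, at 18.8% and 18%.

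**Figure D3:**
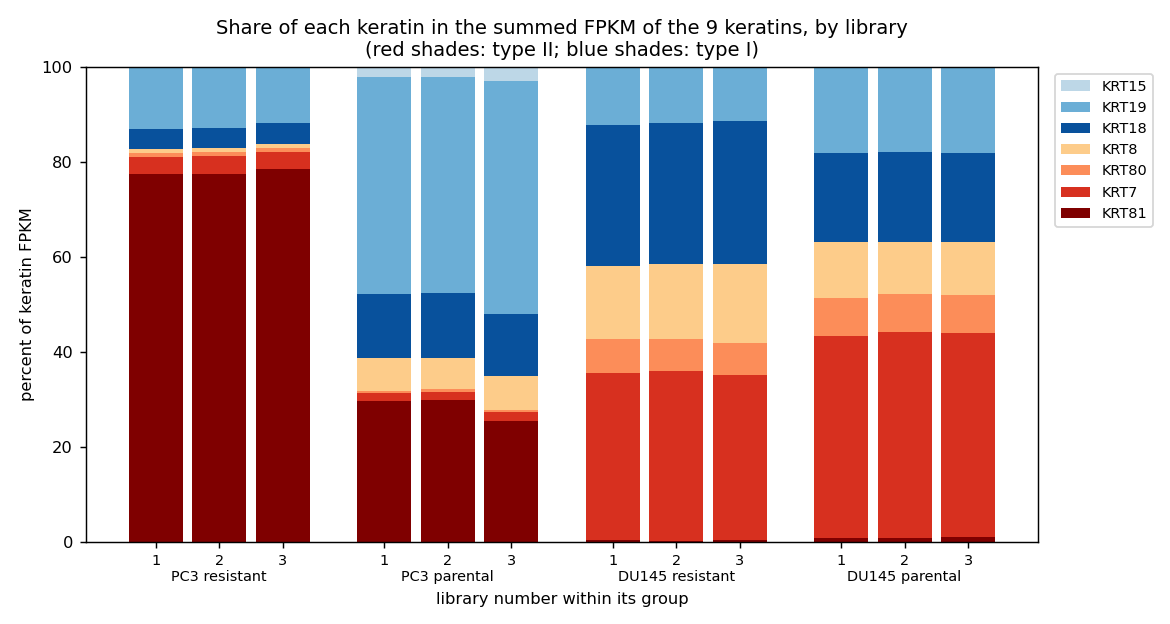
Share of each keratin in the summed FPKM of the 9 keratins, 1 stacked bar per library, with type II genes in red shades at the bottom and type I genes in blue shades above; KRT5 and KRT17 are too small to be drawn. KRT81 fills 77.3% to 78.4% of the bars of resistant PC3 and 25.3% to 29.8% of those of parental PC3, and KRT7 with KRT18 and KRT19 fills most of the DU145 bars.

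VIM was 10.1% ± 0.30 of the summed FPKM of all 10 genes in resistant PC3 and 28.3% ± 0.96 in parental PC3, and 27.5% ± 0.43 in resistant DU145 and 35.2% ± 0.46 in parental DU145. The 3 resistant libraries were below the 3 parental ones in both lines. No test is given for these shares, since they repeat the values of the genes above. The 10 genes took 0.315% ± 0.005 and 0.245% ± 0.004 of all library counts in resistant and parental PC3, and 0.376% ± 0.005 and 0.346% ± 0.002 in resistant and parental DU145. The 9 keratins held between 90.5% and 98.1% of the FPKM of all 34 KRT genes in the files, as group means.

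The other keratins of the files made up the remaining keratin FPKM. Of 13 other type I keratins in the files, 6 were tested, and in PC3 0 were higher and 1 lower, where 44% of all genes tested were called (22.4% higher and 21.6% lower). That gene was KRT20, a keratin of intestinal and urothelial surface cells, with 0.504, 0.364 and 0.490 FPKM in resistant PC3 and 32.8, 29.4 and 40.7 FPKM in parental PC3, a log2 difference of -6.20 ± 0.28 (edgeR adjusted p = 4.339e-09). In DU145 KRT32 and KRT34 were called higher and KRT20 lower, where 39.6% of all genes tested were called (18.9% higher and 20.7% lower). KRT32 had at most 16 counts in a resistant library, with a resistant library and all parental ones at 0, KRT34 at most 69 counts in resistant and 14 in parental libraries, and KRT20 0 counts in all resistant libraries and 8, 4 and 0 in parental ones. KRT10, a keratin of suprabasal epidermis, averaged between 10.3 and 11.4 FPKM in the 4 groups and did not pass in either line. Of 11 other type II keratins, 7 were tested, and the counts below stand beside the same shares, 44% of all genes called in PC3 and 39.6% in DU145. In PC3 3 were higher and 0 lower: KRT86, KRT83, a hair keratin with 3.25, 2.60 and 4.53 FPKM in resistant and 0.551, 0.0662 and 0.363 FPKM in parental cells (3.44 ± 0.85 log2 units, edgeR adjusted p = 0.006745), and KRT75, a keratin of the hair follicle's companion layer. KRT75 had 14.5, 15.6 and 13.8 FPKM in resistant PC3 and 4.0, 4.32 and 3.60 FPKM in parental PC3 (1.92 ± 0.33 log2 units, edgeR adjusted p = 0.0005834). In DU145 KRT86, KRT75 and KRT3 were higher and KRT83 lower. KRT83 had 0 counts in all resistant and 14, 12 and 0 counts in parental DU145, and KRT75 had 13, 12 and 0 counts in resistant and 0 in all parental libraries, so their groups overlapped. KRT3 had at most 25 counts in resistant and 0 in all parental libraries.

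The type II genes and KRT18 form a cluster on chromosome 12. In PC3 the genes that rose lay between KRT80 and KRT75, the first 8 keratins of the row, and those that fell were its last 2; position was not tested. From KRT80 to KRT18 the files hold 17 keratin genes, of which 12 were tested. In PC3 6 were higher (KRT80, KRT7, KRT86, KRT81, KRT83 and KRT75) and 2 lower (KRT8 and KRT18), where 44% of all genes tested were called (22.4% higher and 21.6% lower). In DU145 5 were higher (KRT86, KRT75, KRT3, KRT8 and KRT18) and 2 lower (KRT81 and KRT83), where 39.6% of all genes were called. KRT6B, the ninth in the row, did not pass in PC3. Between KRT80 and KRT81 KRT7-AS had a mean of 2.91 FPKM in resistant PC3 and 0.566 FPKM in parental PC3, and KRT87P, a hair keratin pseudogene, 48.0 and 9.22 FPKM; both overlap KRT7, as does KRT86. Of 11 tested genes in the 500 kb before KRT80, 0 were higher and 2 lower in PC3, and of 22 beyond KRT18 6 were higher and 6 lower. KRT86 overlaps KRT7, KRT87P and KRT81 and shares coding sequence with KRT81, so the counts of these genes may not be independent of each other. The sequence of KRT87P was not compared with that of KRT81.

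**Figure D4:**
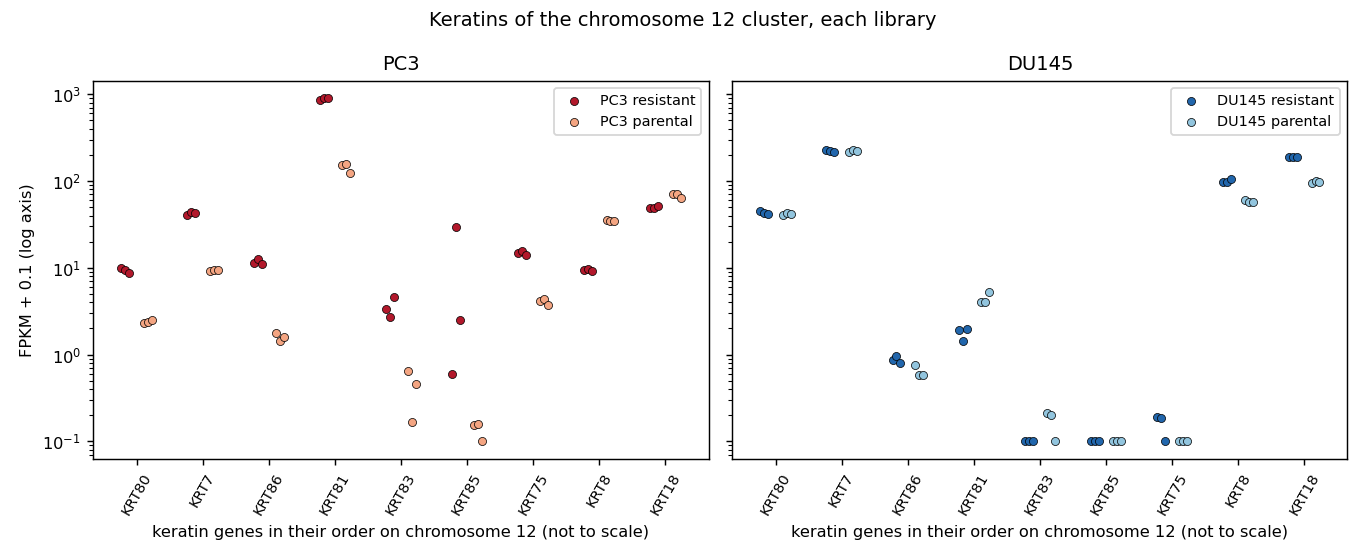
FPKM + 0.1 on a log axis for 9 keratins in their order along chromosome 12, 1 point per library, with resistant libraries left of parental ones for each gene; distances are not to scale. In PC3 the resistant libraries are the higher ones from KRT80 to KRT75 and the lower ones at KRT8 and KRT18. In DU145 they are the higher ones at KRT86, KRT8 and KRT18, the lower ones at KRT81, and overlap the parental ones at the other genes.

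Of 13 other intermediate filament genes tested, 3 were higher and 3 lower in PC3, where 44% of all genes were called, and 5 were higher and 3 lower in DU145, where 39.6% were called. The median log2 differences were 0.16 in PC3 and 0.06 in DU145. In PC3 the nuclear lamins LMNB2 (0.89 ± 0.04) and LMNB1 (0.81 ± 0.06) rose, and the neurofilament gene NEFM (-1.32 ± 0.32) and SYNC, which encodes syncoilin of muscle (-1.10 ± 0.27), fell. NES, which encodes nestin, a partner of vimentin in progenitor cells, had a mean of 77.0 FPKM in resistant and 70.6 FPKM in parental PC3 and did not pass there (edgeR adjusted p = 0.103). In DU145 NES averaged 3.56 FPKM in resistant and 0.328 FPKM in parental cells, a log2 difference of 3.47 ± 0.10 (edgeR adjusted p = 5.291e-12). NEFM (0.86 ± 0.30) also rose in DU145, while SYNC (-2.50 ± 0.29) and NEFL (-0.75 ± 0.11) fell.

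Of 17 tested genes whose proteins tie these filaments to junctions or to each other, 10 were higher and 4 lower in PC3 (44% of all genes were called) and 6 were higher and 4 lower in DU145 (39.6% of all genes were called). The median log2 differences were 0.21 in PC3 and -0.04 in DU145. DSP, which encodes desmoplakin, the desmosomal anchor of keratin filaments, averaged 0.146 FPKM in resistant and 0.806 FPKM in parental PC3 and 14.5 FPKM in resistant and 0.0642 FPKM in parental DU145. Its log2 differences were -2.43 ± 0.19 in PC3 and 7.83 ± 0.22 in DU145 (edgeR adjusted p = 3.101e-07 and 3.664e-11), opposite ways in the lines, as for KRT8 and KRT18. In PC3 COL17A1 (3.11 ± 0.18), a hemidesmosome collagen, and PKP1 (1.08 ± 0.12), a plakophilin of desmosomes, rose. Both also had higher means in resistant than in parental DU145, at 3.17 and 1.635 FPKM for COL17A1 and 1.885 and 0.891 FPKM for PKP1. EPPK1 (-1.76 ± 0.42), which encodes the keratin-binding epiplakin, fell in PC3 at very low levels. It averaged 0.00876 FPKM in resistant and 0.0308 FPKM in parental PC3, with at most 13 and 37 counts in a library. In DU145 PKP2 (1.58 ± 0.13), another plakophilin, rose, and PLEC (-1.11 ± 0.04), which encodes the cross-linker plectin, and FAM83H (-1.02 ± 0.06), whose product binds keratins, fell. PLEC averaged 144 FPKM in resistant and 90.8 FPKM in parental PC3, and 62.0 FPKM in resistant and 136 FPKM in parental DU145, and passed as higher in PC3.

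Transcription factors of epithelial and mesenchymal states were called in both directions: 6 higher and 4 lower of 14 tested in PC3, where 44% of all genes were called, and 7 higher and 5 lower in DU145, where 39.6% were called. SNAI2, which encodes the mesenchymal factor Slug, averaged 12.8 FPKM in resistant and 1.14 FPKM in parental PC3, and 0.954 FPKM in resistant and 0.0575 FPKM in parental DU145, and was higher in both (3.52 ± 0.28 and 4.06 ± 0.36 log2 units). ZEB2 (3.22 ± 0.37) rose in PC3 at levels of 0.145 FPKM in resistant and 0.0160 FPKM in parental cells, while GRHL1 (-2.54 ± 0.26), an epithelial grainyhead factor, and TWIST2 (-1.38 ± 0.26) fell. In DU145 TFAP2C (6.22 ± 0.13), an AP-2 factor, averaged 4.17 FPKM in resistant and 0.0559 FPKM in parental cells, and TWIST2 (-1.66 ± 0.25) fell. EHF (-3.29 ± 0.42), an epithelial ETS factor, also fell there, but at very low levels. It averaged 0.0101 FPKM in resistant and 0.102 FPKM in parental DU145, with at most 7 and 56 counts in a library. edgeR's adjusted p was at most 0.0003432 for each of the factors named here.

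By the same measure of likeness over the 12 libraries, the genes nearest to the other keratins were CNPPD1 and ABCF3 for KRT19 (0.0835 and 0.0868), WARS1 and MCL1 for KRT18 (0.116 and 0.120), TINAGL1 and PFKFB3 for KRT8 (0.176 and 0.232) and APOBEC3C and TSPAN8 for KRT15 (0.219 and 0.271). Those of KRT81 were SRGN at 0.406 and CALB1 at 0.459. KRT8 and KRT18 were not among each other's 2 nearest. A small value means a like course over the 4 groups and also a small range, so the values of different genes are not ranked against each other.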

How the data were processed

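RNA was measured in 3 libraries of each of 4 groups. Per the labels' protocols, oligo(dT)-selected RNA was sequenced as paired 150-base reads after dUTP marking of the second strand. Tools listed in the submitters' processing notes are HISAT2 2.0.4, cutadapt 1.9, StringTie 1.3.4d, edgeR and DESeq2, with hg18 as build. Gene positions in the files match GRCh38 instead: 37385 genes were also in GENCODE on that build, of which 37377 overlapped their entry and 23671 had identical ends. The counting program, any strand setting and the treatment of shared reads were not given in the sources used here. Each library's file, as the authors deposited it, pairs raw whole-number counts with FPKM values. Counts were fitted with edgeR 4.0.16 in R 4.3.3: filterByExpr (24128 genes kept), TMM scaling, 1 mean per group over 12 libraries with 8 residual degrees of freedom, robust dispersions and the two-sided quasi-likelihood F test, adjusted over all genes tested. Standard errors are the absolute log2 difference over the root of F, and levels are deposited FPKM, as mean ± SD. Low counts varied more than independent molecules would, so depth is no guide to precision at low levels. The scripts were tested on simulated data. The genes and lists were chosen with earlier results of these data known; beside the 10 genes, those named were, per list and comparison, the 2 largest called differences each way among genes averaging at least 1 CPM, and the 2 genes nearest in pattern among those averaging at least 5 CPM; KRT86, KRT83, KRT75, KRT3, KRT6B, KRT32, KRT34, KRT10, NES, PLEC, KRT7-AS and KRT87P are named beside these for their place or level after their values were seen. The genes nearest to VIM are not reported here. Coding sequences were aligned with Biopython 1.88. Alternatives were DESeq2 1.42.0, RLE scaling, other filters, limma 3.58.1 on log2(FPKM + 1 or 0.1), a replicate block, fits on the 6 libraries compared, and leaving out each library.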

Additional observations from a re-analysis of the deposited data

Results flagged for a closer look

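The resistant minus parental difference was unlike in the 2 lines for 8 genes by the edgeR interaction test. The log2 values for PC3 minus DU145 were 3.99 for KRT81, 2.216 for KRT7, 1.983 for KRT80, -1.397 for KRT18, -2.435 for KRT15, -2.675 for KRT8, -0.417 for KRT19 and -0.3994 for VIM. Of all genes tested 42.1% passed the same test. Mitochondrial counts also moved opposite ways in the lines, at 3.50% in resistant and 5.82% in parental PC3 and 7.08% in resistant and 4.11% in parental DU145; their part in these differences was not tested.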

How the results depend on the processing

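No called difference of the 8 genes changed direction under any alternative run, and each count of genes called stayed within 1.5 times its main value. Under other tools, filters and scalings 311 values of single genes stayed on their side of the threshold and 1 lost its call, KRT15 in DU145 under limma on log2(FPKM + 1) (0.2265, adjusted p = 0.1335), where 5 of 8 genes were called instead of 6. KRT7 in DU145, which did not pass in any fit, was -0.002503 and -0.002512 under limma on log2(FPKM + 1) and log2(FPKM + 0.1), against 0.02173 in edgeR. With CPM in place of FPKM, which drops the division by length, resistant minus parental type II share of keratin was 39.59 percentage points in PC3 (45.65 with FPKM) and -3.92 in DU145 (-4.811), VIM's share -21.41 in PC3 (-18.16) and -9.187 in DU145 (-7.656), and the KRT8 to KRT18 ratio -0.7299 in PC3 (-0.3255) and -0.1501 in DU145 (-0.06694). With all KRT genes, VIM's share was -16.58 in PC3 and the type II share -4.499 in DU145. Leaving out 1 library at a time gave 44.38 to 46.29 and -4.898 to -4.678 for the type II share in PC3 and DU145, -18.6 to -17.65 and -7.924 to -7.424 for VIM's share, and -0.3393 to -0.309 and -0.07814 to -0.05233 for the ratio; it changed no call of the 8 genes. With the replicate number as a block, 8 and 6 of the 8 genes were called in PC3 and DU145, and 10219 and 9155 of all genes (10615 and 9554 without). Same-numbered libraries of a line did not deviate together (correlations from -0.11 to 0.0773), so the numbers were not taken to pair samples. KRT5 and KRT17 had at most 27 counts in any library and none in most, so no difference is given for them.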

Other observations

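KRT85, a hair keratin gene of the same cluster, singled out after its values were seen, had 95, 5123 and 470 counts in the 3 libraries of resistant PC3, 10, 10 and 0 in those of parental PC3 and 0 in all 6 of DU145. Its FPKM in the second resistant library, 29.3, was above that of KRT75 and KRT86 in any library, and the difference between resistant and parental PC3 did not pass (edgeR adjusted p = 0.05551). Of 14817 genes with a mean of at least 1 CPM in resistant PC3, 66 spread at least 10-fold between the 3 libraries, and 61 to 66 did so in the other groups.

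HOXB13, a prostate lineage factor, averaged 40.9 FPKM in resistant and 295 FPKM in parental PC3, and 0.140 and 0.123 FPKM in resistant and parental DU145.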
